A study of Mus musculus with 9 samples.

Results

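The GATA factor genes Gata1, Gata2 and Gata3 and the cofactor gene Zfpm1 were read in 9 lists of CUT&Tag peaks made from blood stem and progenitor cells of mouse bone marrow. They are 4 of 21887 protein-coding genes, chosen by name, and each was read over its RefSeq span with 80 kb added on each side. In mm10, Gata1 (gene ID 14460) lies at chrX:7959260-7976663, Gata2 (14461) at chr6:88193891-88207032, Gata3 (14462) at chr2:9857078-9887953 and Zfpm1 (22761) at chr8:122281856-122337862. In CUT&Tag a transposase held by an antibody cuts and tags the DNA around the bound protein. All mice were C57BL/6 and 12 weeks old. In cKO mice (Dekfl/fl,Tie2-Cre) the floxed gene of the chromatin protein DEK is deleted by Cre under the Tie2 promoter, which is active in endothelial and blood cells. The fl controls (Dekfl/fl) carry the same floxed alleles and no Cre, so loss of DEK and presence of Cre cannot be told apart. H3K27ac and H3K4me3, marks of active chromatin and of promoters, were profiled in about 50000 sorted LSK cells (Lin-Sca-1+c-Kit+), with 1 cKO and 1 fl library each. H3K9ac, another acetylation mark, was profiled in about 20000 haematopoietic stem cells (HSC), the CD48- and CD150+ share of the same gate, again with 1 cKO and 1 fl library. DEK itself was profiled in 3 fl HSC libraries. The number of mice behind a library is not given in the sources used here.

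GATA factors are zinc finger proteins that bind the letters GATA in regulatory DNA. GATA2 maintains stem and progenitor cells, and GATA1 takes over from it as erythroid cells and megakaryocytes mature. GATA3 drives T cell development and also acts in stem cells. Zfpm1 encodes FOG1, which does not itself read the GATA letters but docks on the amino-terminal finger of GATA1 and brings in the NuRD corepressor complex. Gata2 has alternative promoters, of which the upstream one is used mainly in blood and neural cells.

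The annotated starts are the places on which the results turn, so the 300 bases around each (250 before and 50 from the start, GRCm38.p6, which has the mm10 coordinates) are given from RefSeq. Capitals mark CCAAT boxes and GATA elements on either strand, where a GATA element is AGATAA or AGATAG or TGATAA or TGATAG. Each line runs 5′ to 3′ on the strand of the gene. The upstream Gata2 start lies on the plus strand at chr6:88193641-88193940, the downstream Gata2 start at chr6:88198414-88198713, and Zfpm1, also plus, at chr8:122281891-122282190. Gata3 (minus strand, chr2:9878551-9878850) and Gata1 (minus strand, chrX:7967861-7968160) are shown for contrast, since neither had an acetylated start. For each of these genes 1 start was listed, but the gene span reaches further upstream, to chr2:9887953 for Gata3 and chrX:7976663 for Gata1. Those upstream ends are not in the windows, and any start there was not read.
Gata2 upstream start: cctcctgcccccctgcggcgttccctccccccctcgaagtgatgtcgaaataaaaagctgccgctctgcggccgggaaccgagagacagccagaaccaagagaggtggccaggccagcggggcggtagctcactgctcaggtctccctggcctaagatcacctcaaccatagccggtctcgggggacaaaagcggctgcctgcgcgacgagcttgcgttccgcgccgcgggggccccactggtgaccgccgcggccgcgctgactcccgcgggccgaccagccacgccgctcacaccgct
Gata2 downstream start: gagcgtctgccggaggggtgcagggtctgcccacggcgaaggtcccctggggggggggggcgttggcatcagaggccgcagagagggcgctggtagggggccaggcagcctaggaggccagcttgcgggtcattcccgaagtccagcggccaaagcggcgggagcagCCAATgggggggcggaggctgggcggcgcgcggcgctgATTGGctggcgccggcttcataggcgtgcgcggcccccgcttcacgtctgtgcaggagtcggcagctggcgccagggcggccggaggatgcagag
Zfpm1: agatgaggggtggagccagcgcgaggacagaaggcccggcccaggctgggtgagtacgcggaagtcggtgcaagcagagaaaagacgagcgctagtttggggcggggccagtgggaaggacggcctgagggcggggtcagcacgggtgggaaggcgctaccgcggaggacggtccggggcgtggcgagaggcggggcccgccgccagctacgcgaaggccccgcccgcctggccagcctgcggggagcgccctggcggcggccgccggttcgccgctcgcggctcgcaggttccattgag
Gata3: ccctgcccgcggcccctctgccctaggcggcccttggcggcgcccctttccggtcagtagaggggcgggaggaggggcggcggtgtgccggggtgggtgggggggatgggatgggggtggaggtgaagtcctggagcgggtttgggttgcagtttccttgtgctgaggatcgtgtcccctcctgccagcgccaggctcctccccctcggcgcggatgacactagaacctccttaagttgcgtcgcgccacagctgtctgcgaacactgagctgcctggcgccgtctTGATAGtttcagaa
Gata1: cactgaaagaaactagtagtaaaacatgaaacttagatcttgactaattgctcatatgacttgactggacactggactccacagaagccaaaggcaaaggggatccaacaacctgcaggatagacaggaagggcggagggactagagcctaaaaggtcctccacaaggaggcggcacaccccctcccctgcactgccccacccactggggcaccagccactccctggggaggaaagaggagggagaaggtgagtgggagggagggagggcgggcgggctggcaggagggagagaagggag

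The promoters differed in base composition. CpG pairs numbered 32 and 29 at the upstream and downstream Gata2 starts and 37 at Zfpm1, against 22 at Gata3, 4 at Gata1 and a median of 13 over 21263 promoters. The Zfpm1 window had more CpG pairs than 92.7% of all promoters, and the Gata1 window more than 23.9%. A GATA element was found in the Gata3 window only, from 36 to 41 bases after the start, and 26.0% of all promoters hold one. CCAAT was found at the downstream Gata2 start only, on each strand once, and 38.2% of promoters hold it. The GC box letters GGGCGG stood in all 5 windows, as in 46.2% of promoters. These matches are letters in a window and show no binding.

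H3K27ac lay at the starts of Gata2 and Zfpm1 in the cKO list and at no start of the 4 genes in the fl list. All 3 acetylated starts had their summit just upstream of the start and a peak that covered the whole printed promoter, as at 20.3% of the starts with H3K27ac in cKO only. Gata3 had no H3K27ac peak anywhere in its span in either list, and Gata1 had none of its own. A start with H3K27ac in cKO only was found for 21.7% of protein-coding genes, a start in both lists for 22.3%, one in fl only for 0.361% and one in neither for 55.7%. Among genes with H3K4me3 at a start in both lists, as at Gata2 and Zfpm1, the cKO-only share was 33%. With 1 library for each genotype no test was possible, and 2 of 4 genes is a description.

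At Gata2 the cKO H3K27ac list held 3 peaks and the fl list 0. With both lists held to the length of the shorter, all 3 were lost. The peak of the upstream start (chr6:88193549-88194020) reached from -342 to 129 bases around it. Its fold enrichment was 4.83, with −log10 q at 8.05. These folds and q-values are the authors' own, measured at the summit against the background of the same library, and are read only within a list. The peak of the downstream start (chr6:88198378-88198723) reached from -286 to 59 bases, at fold 4.75 and −log10 q 6.93. Both folds were low: of 4431 start sites with H3K27ac in cKO only, 1.08% had a lower fold than the upstream and 0.677% a lower fold than the downstream Gata2 start. The third peak (chr6:88189635-88189965) was distal, with its summit at -3990 bases from the upstream start, in the stretch where GATA-bound elements of Gata2 are known. It had fold 6.42 and −log10 q 10.4, and the non-coding gene Gm38708 spans it. Gm38708 also spans the H3K27ac and H3K4me3 peaks of the upstream Gata2 start. In neither list did an H3K27ac peak lie inside Gata2 beyond the downstream start, where the intronic enhancer needed for stem cell emergence is known to lie.

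At Zfpm1 the acetylated places differed between the lists. In cKO the start carried a peak (chr8:122281739-122282230) from -402 to 89 bases, at fold 11.0 and −log10 q 25.1. This fold was higher than at 73.8% of the cKO-only start sites, where the median was 9.20 (quartiles 7.47 and 11.2). In fl the nearest peak (chr8:122284344-122284644) lay inside the gene, 2203 to 2503 bases past the start, at fold 6.72 and −log10 q 7.80. It was 301 bp wide, and no peak of the fl list was narrower. The cKO list held no peak there. Of all H3K27ac regions 7.62% were fl only, and this was the 1 fl-only region of the 4 spans. The cKO list also held a peak near the 3′ end of Zfpm1 (chr8:122336685-122337079, fold 6.47) and a distal one inside the neighbouring gene Zfp469 (chr8:122230499-122230813, fold 6.46). Both ranked low by −log10 q, with 6.75% of that list below the first and 6.34% below the second.

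**Figure D1:**
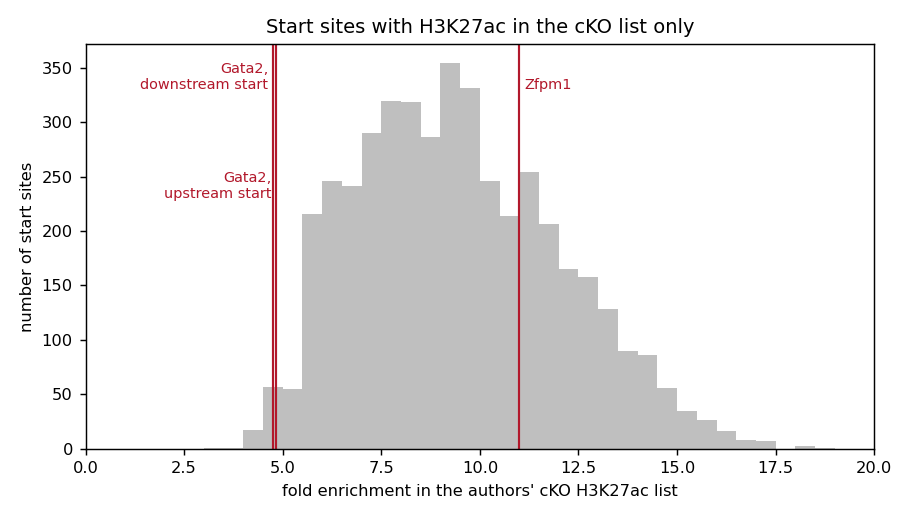
Number of start sites of protein-coding genes (vertical axis) by fold enrichment in the authors' cKO H3K27ac list (horizontal axis), for the 4431 starts with H3K27ac in cKO only. Red lines mark the starts of Gata2 (4.75 and 4.83), at the low end, and Zfpm1 (11.0), above the median of 9.20.

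Joined at 1 bp of overlap, the H3K27ac peaks of the 4 spans made 9 regions, of which 6 were cKO only, 2 shared and 1 fl only. Over all 17662 H3K27ac regions 40.9% were cKO only and 51.5% shared. Per gene, the cKO-only regions numbered 3 at Gata2, 3 at Zfpm1, 0 at Gata3 and 0 at Gata1, where protein-coding genes had a median of 1 (quartiles 0 and 2). At least 1 such region was found for 61.4% of genes, and at least 1 fl-only region for 9.2%. Both shared regions belonged to neighbours: the Pqbp1 and Timm17b ends near Gata1, and the Gm39270 and Zc3h18 ends near Zfpm1. By −log10 q, 88.7% of the cKO list and 16.5% of the fl list ranked below the peak at Gm39270 and Zc3h18. Having no H3K27ac region within 80 kb, as at Gata3, was found for 15.6% of genes. The cKO list was the longer one, with 16331 peaks against 10494 in fl, and read depth is unknown. With both lists held to the length of the shorter, the cKO-only regions of the 4 spans numbered 1, the Zfpm1 start. In such bulk samples, fewer marked cells and a weaker mark per cell cannot be told apart.

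**Figure D2:**
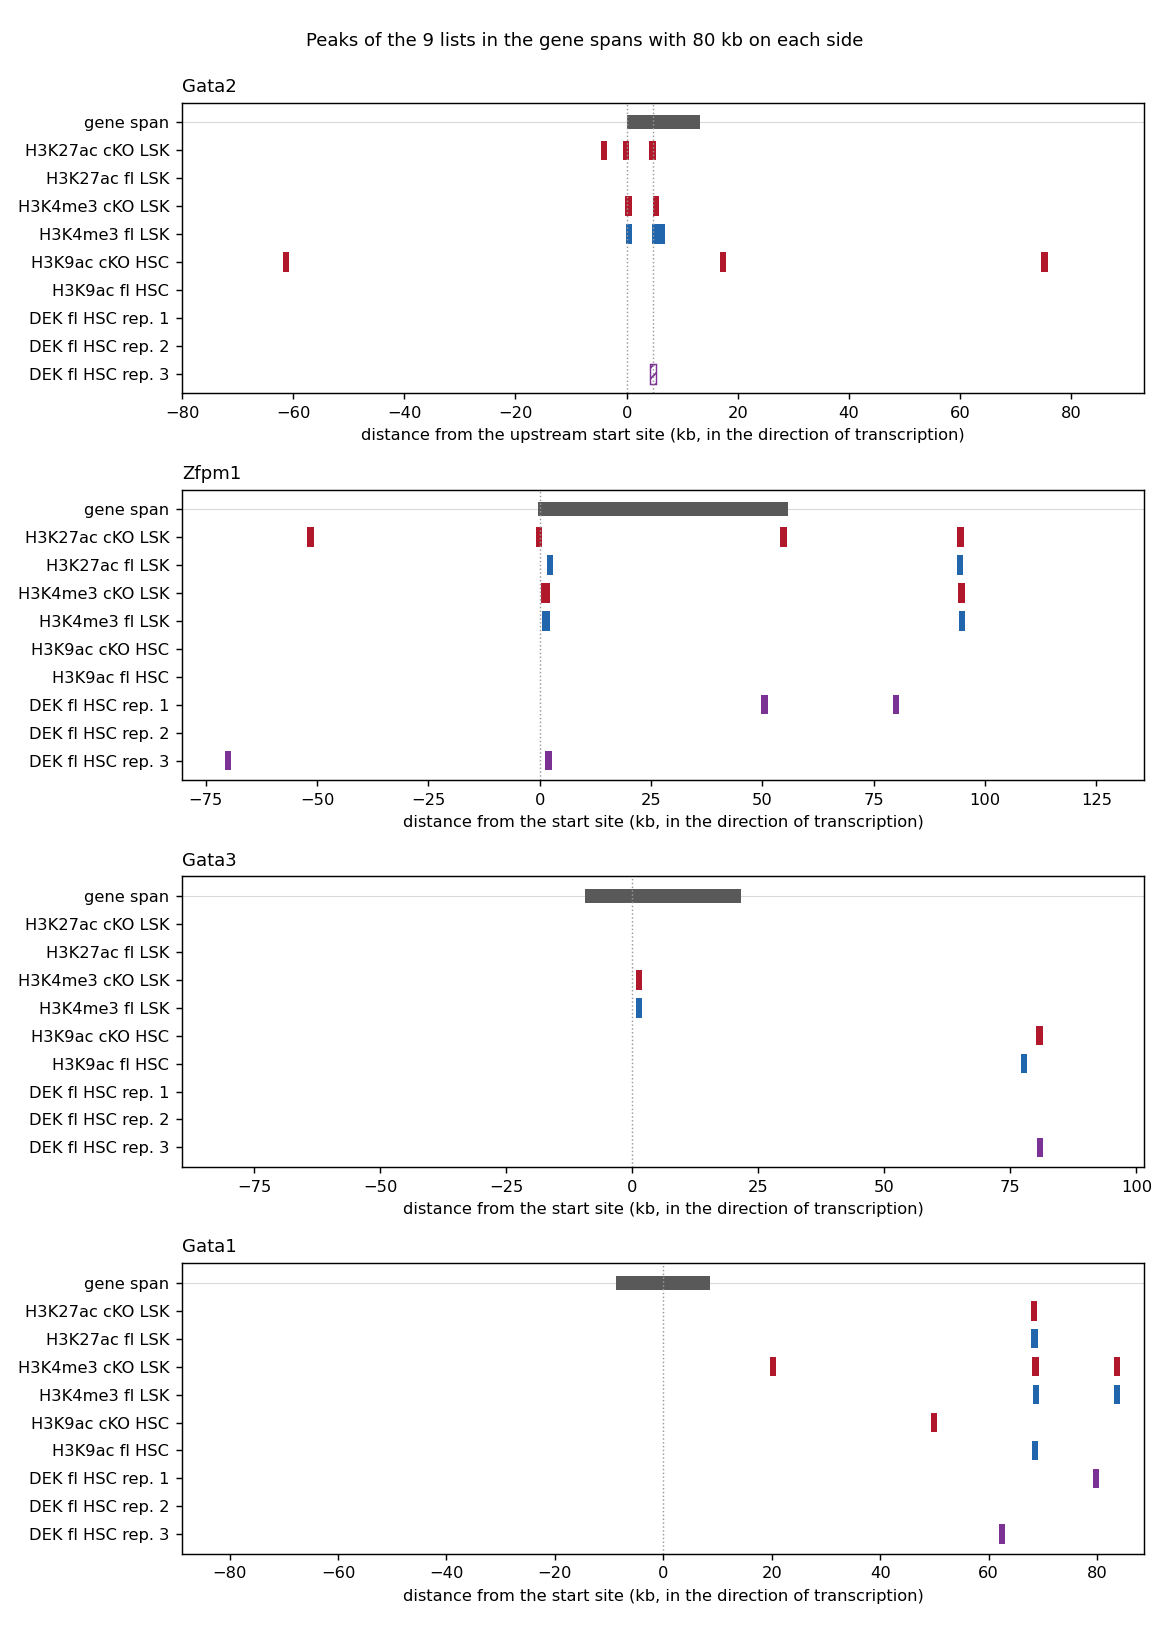
Peaks of the 9 lists (rows) by distance in kb from the start site, in the direction of transcription, for Gata2, Zfpm1, Gata3 and Gata1, with 80 kb on each side of the gene span (grey bar); dotted lines are start sites, red is cKO, blue fl and purple DEK in fl. Peaks are drawn wider than they are so that they can be seen, the hatched mark is a DEK row out of coordinate order, and no mark of any list lies on the grey bar of Gata1.

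H3K4me3 was present in both genotypes at Gata2, Zfpm1 and Gata3, and absent from Gata1. In both lists it marked both Gata2 starts and the Zfpm1 start. H3K4me3 at a start was in both lists for 42.9% of protein-coding genes, in cKO only for 1.62% and in fl only for 2.76%. At the upstream Gata2 start it was 587 bp wide in cKO and 499 bp in fl. At the downstream start the widths were 1100 bp in cKO and 978 bp in fl. The Zfpm1 peak was 1885 bp wide in cKO and 1818 bp in fl, wider than 97.5% of the H3K4me3 starts of the cKO list and 96.4% of those of the fl list.

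The ratios of width, cKO over fl, were 1.18, 1.12 and 1.04 at the upstream Gata2, downstream Gata2 and Zfpm1 starts. Over 9132 starts with H3K4me3 in both lists the median ratio was 0.957, with quartiles of 0.856 and 1.04 and a central 95% from 0.572 to 1.45. All 3 ratios thus lay inside that range, at the 90.2, 86.4 and 74.2 percentile, and how far widths vary between libraries of 1 genotype was not measured. Past the downstream Gata2 start, fl had a further H3K4me3 peak (chr6:88199956-88200594, fold 2.95, −log10 q 9.29) that cKO lacked, with a gap of 222 bp from the cKO peak. Counted over 2 kb around that start, where this peak is included, the ratio was 0.546. It was the 1 fl-only H3K4me3 region of the 4 spans, beside 7 shared and 1 cKO only. Over all 11175 H3K4me3 regions 6.15% were cKO only, 84.2% shared and 9.65% fl only. An fl-only region lay in the span of 16.6% of genes and a cKO-only one in that of 11.4%.

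**Figure D3:**
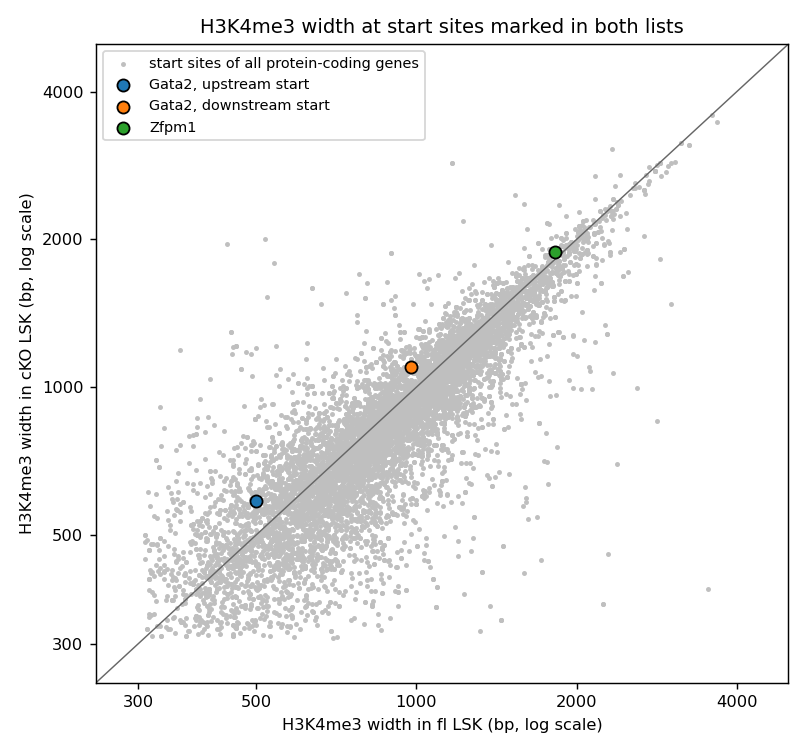
H3K4me3 width in bp in cKO LSK (vertical, log scale) against fl LSK (horizontal, log scale) at 9132 start sites marked in both lists; the line is equality. The 3 coloured points are the Gata2 starts (587 and 499 bp, 1100 and 978 bp) and Zfpm1 (1885 and 1818 bp), all just above the line.

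The H3K4me3 peaks at these starts had low folds and middling q-values. Their folds were 3.40 and 3.41 at the upstream and downstream Gata2 starts and 4.12 at Zfpm1 in cKO, and 3.70, 3.80 and 4.23 in fl. In the same lists the median fold was 9.04 in cKO and 9.37 in fl, and between 0.561% and 2.70% of peaks had a lower fold than these 6 peaks. By −log10 q, 29.0% to 44.7% of peaks ranked below them.

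The marks were also displaced from each other. At the Zfpm1 start the cKO H3K4me3 peak began 349 bases after the start and left a gap of 259 bp to the cKO H3K27ac peak. At the upstream Gata2 start the cKO peaks of the 2 marks shared 67 bp, and at the downstream start 90 bp. The H3K27ac summits stood at -156, -148 and -151 bases from the upstream Gata2, downstream Gata2 and Zfpm1 starts, and the cKO H3K4me3 summits at 449, 101 and 1963 bases. An H3K27ac summit before and an H3K4me3 summit after the start was found at 15.4% of 7576 cKO starts with both marks. An H3K27ac summit upstream of the H3K4me3 summit, wherever the start, was common, at 65.4% of the same 7576 starts. Over all marked cKO starts the median summit lay 97 bases after the start for H3K27ac and 176 for H3K4me3. The fl H3K27ac peak inside Zfpm1 lay at the far edge of the H3K4me3 peak, which it overlapped by 31 bp in cKO and 78 bp in fl. The non-coding gene Gm39269 spans that place, and also the cKO H3K27ac peak and the H3K4me3 peaks at the Zfpm1 start.

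**Figure D4:**
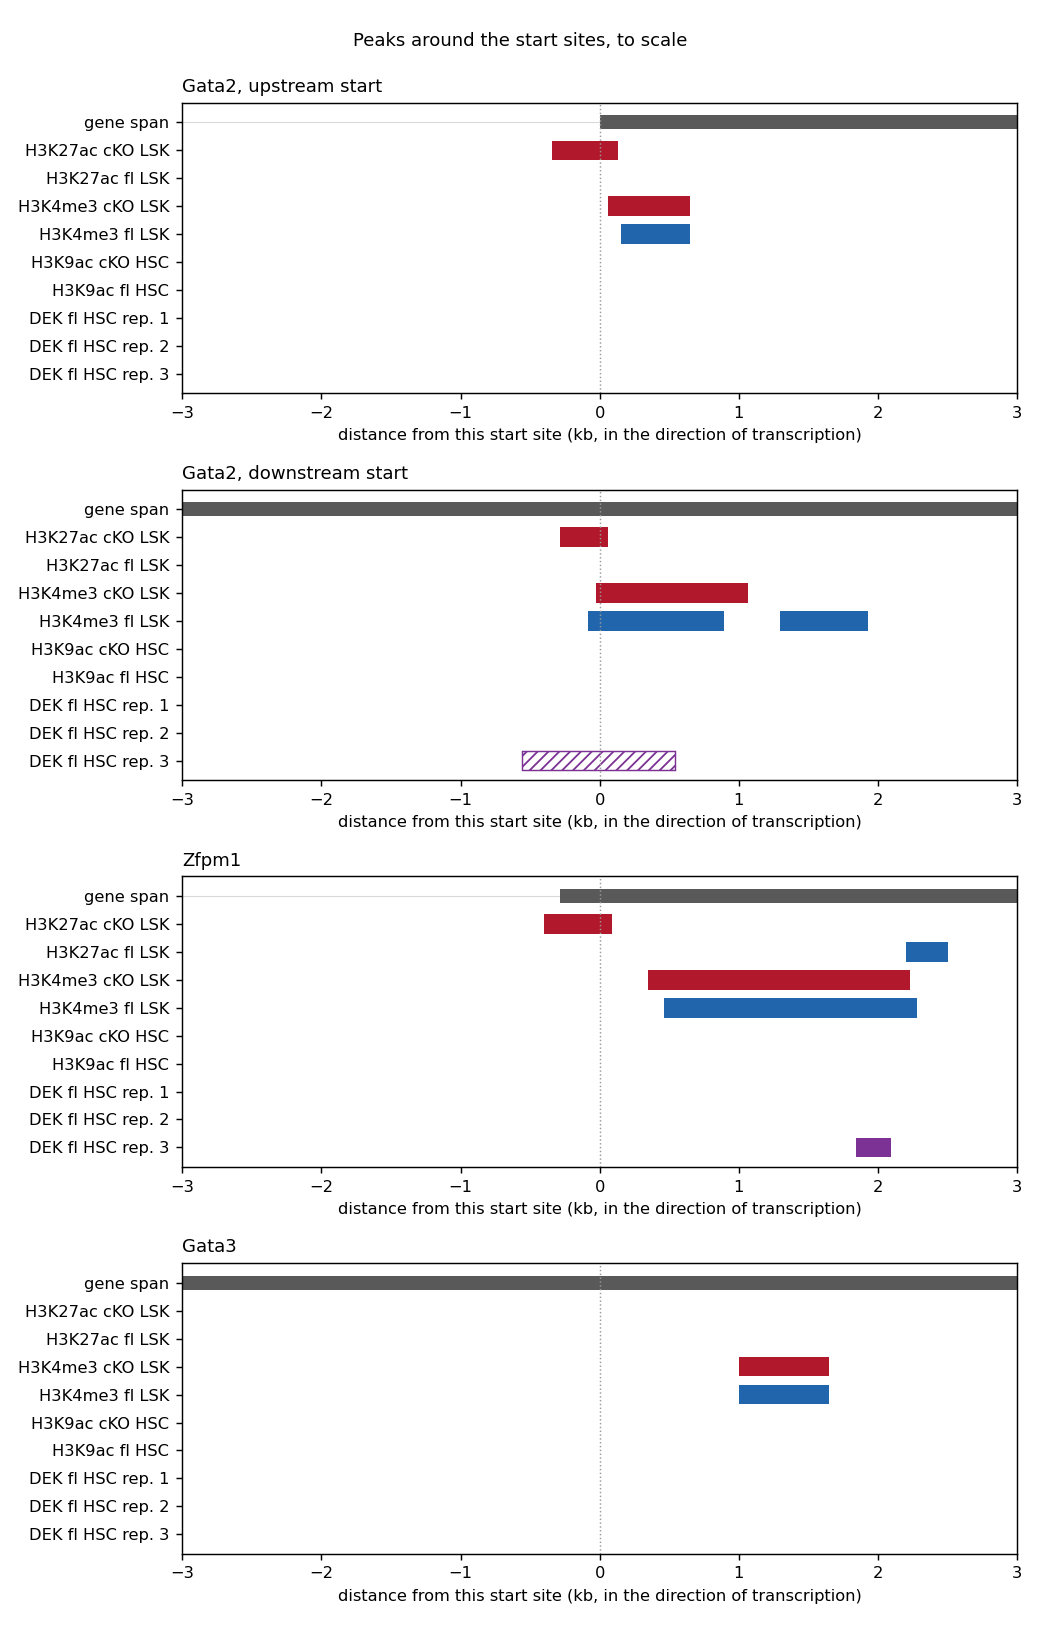
Peaks of the 9 lists (rows), to scale, by distance in kb from the upstream and downstream starts of Gata2 and the starts of Zfpm1 and Gata3; red is cKO, blue fl, purple DEK in fl, and hatching marks the DEK row out of coordinate order. At Gata2 and Zfpm1 the cKO H3K27ac peak sits across the start and H3K4me3 follows it, while Gata3 has H3K4me3 alone.

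Gata3 had 1 H3K4me3 peak, at chr2:9876952-9877598 in both lists, 647 bp wide. Its fold was 6.94 in cKO and 6.36 in fl, with 22.3% of the cKO list and 15.2% of the fl list at a lower fold. It began 1002 bases after the annotated start, 2 bases outside the window of 1 kb, so by that rule Gata3 counts as unmarked and with a window of 2 kb as marked in both. Unlike Gata2 and Zfpm1 it carried no H3K27ac in either list. Of genes with H3K4me3 within 1 kb of a start in both lists, which by that window do not include Gata3, 17.6% had H3K27ac at a start in neither.

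Gata1 had no peak of any list on its gene. H3K4me3 at a start was absent from both lists for 52.7% of protein-coding genes, and of those 87.8% also lacked H3K27ac there. Most peaks of its span lay at or inside the genes beside it. The shared H3K27ac region at Pqbp1 and Timm17b had a fold of 14.7 in cKO and 12.7 in fl. By fold, 88.0% of the cKO list and 86.6% of the fl list ranked below it. By −log10 q these shares were 73.7% in cKO and 77.4% in fl. H3K4me3 was shared there and at the Pim2 and Slc35a2 ends. In cKO only, a peak of 309 bp lay at an end of Hdac6, a deacetylase gene (chrX:7947574-7947882, fold 8.37), and no peak of that list was narrower.

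H3K9ac in HSC gave 5 cKO-only, 0 shared and 2 fl-only regions in the spans, and none of them lay on a member gene or at its start. No H3K9ac peak at a start was found in either list for 98.6% of protein-coding genes. Over all H3K9ac regions 58.9% were cKO only, 6.12% shared and 35% fl only. Gata2 had 3, all in cKO only, with −log10 q of 1.70, 3.06 and 5.40 and summits at -61330, 12528 and 70450 bases from the nearer Gata2 start. Of protein-coding genes 27.6% had at least 1 cKO-only H3K9ac region in their span, 17.4% had at least 1 fl-only region and 59.1% had none. Gata3 and Gata1 each had 1 in cKO only and 1 in fl only, all with −log10 q between 1.70 and 2.11, and Zfpm1 had 0. The cKO peaks of Gata3 and Gata1 stood at 1.70, as did the first Gata2 peak. No peak of that list had a lower −log10 q. The fl peak in the Gata1 span lay on the Pqbp1 and Timm17b region that also carried H3K27ac and H3K4me3.

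DEK had no regular peak at any start of the 4 genes, and peaks at a start were rare throughout, with 0.827% of protein-coding genes in any of the 3 libraries. The 4 spans together held 3, 0 and 4 regular DEK peaks in replicates 1, 2 and 3 (mean 2.33 ± 2.08, SD, n = 3). Without replicate 3 the mean was 1.5. A regular peak lay in the span of 15.2%, 15.8% and 34.7% of protein-coding genes in replicates 1, 2 and 3. At least 1 regular peak in the span was found for 3 of the 4 genes, all but Gata2, against 49.5% of protein-coding genes. Gata1 and Zfpm1 had a peak in 2 libraries, against 13.7% of genes, but not at the same place: the nearest peaks of different libraries were 17022 bp apart at Gata1 and 48273 bp apart at Zfpm1.

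On member genes themselves DEK peaks were found at Zfpm1 alone. Replicate 1 had one deep inside the gene (chr8:122332505-122332782, fold 8.37, −log10 q 8.95). Replicate 3 had one 1844 to 2090 bases past the start (chr8:122283985-122284231, fold 5.67, −log10 q 4.63). This second peak lay wholly within the H3K4me3 peak of both genotypes and 112 bp from the fl H3K27ac peak. Near Gata1 the peaks lay inside Slc35a2 in replicate 1 (fold 4.42, −log10 q 2.94) and Timm17b in replicate 3 (fold 3.58, −log10 q 2.04). Near Gata3 replicate 3 had one between genes (fold 6.85). The Gata3 peak overlapped the cKO H3K9ac peak of its span by 287 bp. That H3K9ac peak stood at the lowest −log10 q of its list. The remaining Zfpm1 peaks lay at an end of Trhr2 in replicate 1 (fold 5.91) and inside Zfp469 in replicate 3 (fold 3.58). No peak of the replicate 3 list had a lower −log10 q than the peaks in Timm17b and Zfp469. In replicate 3 the rows are named Flag and not DEK as in replicates 1 and 2, and their names, like those of both H3K9ac lists, mark duplicates as removed.

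At Gata2 the only DEK row was an irregular one, and it enters no count above. In replicate 3 a row at chr6:88198105-88199206 reached from -559 to 542 bases around the downstream start, at fold 6.75 and −log10 q 6.68. It is out of coordinate order: the next row of the list starts 164156 bp before it, and taking out either row of the pair restores the order. Its strand column holds the usual dot. It was 1102 bp wide, and 41 other rows of that list with the same fold, p and q had a median width of 214 bp and were at most 657 bp wide. The row overlapped the cKO H3K27ac peak of the downstream start over its whole 346 bp and the H3K4me3 peaks by 573 bp in cKO and 625 bp in fl. Replicates 1 and 2 had no row there. No row with a strand column other than a dot lay in the 4 spans.

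Related genes were read at their starts in the same way. Among 14 partners of GATA factors, H3K4me3 was in both lists at 10, in cKO only at Lmo2, and in fl only at Erg and Spi1. H3K27ac was in cKO only at 4 of the 14: Tal1 and Tcf3, which bind DNA as a pair beside GATA factors, the corepressor gene Cbfa2t3, and the ETS factor gene Erg. It was in both lists at 4 (Ldb1, Tcf12, Runx1 and Klf1) and in fl only at 0. Of 13 genes of NuRD and of coactivators all had H3K4me3 in both lists, with H3K27ac in both at 8 and in cKO only at 5 (Mta1, Mta2, Mbd3, Rbbp7 and the acetyl-lysine reader Brd3). Of 17 genes known as GATA targets, 11 had H3K4me3 in neither list, and Il7r, an interleukin receptor gene, had it in fl only. Among the 17, H3K27ac was in cKO only at 2, Kit (the stem cell factor receptor) and Tal1, and at no start in fl. Of the 3 other GATA genes, Gata5 had H3K27ac in cKO only, while Gata4 and Gata6 had none. Gata4 had a DEK peak at its start in 1 library, and so had Mecom and Ebf1 among the marker genes below. A regular DEK peak at a start was found for 0.827% of protein-coding genes. Over all protein-coding genes H3K4me3 was in both lists at 42.9%, in cKO only at 1.62%, in fl only at 2.76% and in neither at 52.7%. Over all genes H3K27ac was in cKO only at 21.7%. Among genes with H3K4me3 in both lists, as all 13 NuRD and coactivator genes have, it was in cKO only at 33% and in both at 48.9%. The lists were made with earlier results known.

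The sorted population was checked against marker genes. Of 10 stem and progenitor genes, 6 had H3K4me3 at a start in both lists (Kit, Cd34, Flt3, Mecom, Meis1 and Runx1), and Hlf had it in cKO only, where the shares over all genes were 42.9% and 1.62%. H3K27ac was in cKO only at 5 of the 10 (Kit, Cd34, Mecom, Hlf and Meis1), against 21.7% of all genes. Among all genes with H3K4me3 in both lists that share was 33%. Flt3 and Runx1 had H3K27ac in both lists. Hoxa9 had neither mark, nor did Ly6a and Slamf1, which encode the sorting markers Sca-1 and CD150. H3K4me3 in both lists was found at 2 of 7 erythroid genes (Klf1 and Epor), 1 of 4 B cell genes (Ebf1), and 0 of 6 megakaryocyte, 0 of 7 T and innate lymphoid, 0 of 5 myeloid, 0 of 4 mast cell and basophil and 0 of 4 endothelial genes. In 1 list alone, H3K4me3 was at S100a8 in cKO and at Il7r in fl. H3K27ac in cKO only was seen at the lymphoid genes Cd4, Tcf7, Rora and Ebf1 and at the endothelial gene Kdr. Their part in the cKO-only H3K27ac peaks of Gata2 and Zfpm1 was not tested.

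Each gene was also set beside those with the most similar peak cover, measured as the Euclidean distance over the 9 libraries in log2 of 1 plus the bp of the span under peaks. For Gata2 these were Fez1 (distance 0.37), Oxa1l (0.47) and Tnpo3 (0.52). All had, like Gata2, no fl H3K27ac and no DEK cover, which follows from how they were chosen, since distances so small require it. For Zfpm1 they were Mad2l1bp and Rsph9 (0.63 each, with the same cover in every library) and Sgk3 (0.74). The nearest genes were farther off for Gata3, namely Slc5a8 (0.85), Adck1 (1.26) and Tars (1.74), and for Gata1, namely Oas3 (1.45), Plcb4 (1.52) and Svil (1.54).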

How the data were processed

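Bowtie2, Picard, MACS2 and the mm10 build are named per the submitters' processing notes. Their versions, parameters, any control and the cut-off were not given in the sources used here. Each deposited peak list by the authors holds 1 library, with no pooling. There is 1 library per genotype and mark (3 for DEK, in fl only), so no test was run. In these deposited lists the score is 10 times the −log10 p, the fold is a ratio of the summit over background within that library, and the −log10 p and −log10 q are the caller's p-value and q-value. Depth is unknown, so heights were read within a list only. The lowest −log10 p of each list was between 5.00 and 5.08.

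Autosomal, X and Y peaks entered. Left out were 12 DEK rows with a strand column other than a dot, a score more than 1 from 10 times the −log10 p, or a start out of order. cKO and fl peaks overlapping by 1 bp formed regions. A start is marked when a peak lies within 1 kb of a RefSeq start (GRCm38.p6 promoter table, 17492 of 21887 genes; both gene ends otherwise). The tables give no exons, so introns were not told apart from exons. Named were the 4 genes, neighbours with a peak at an end, list genes that differ between genotypes (1 is not reported here), and the 3 most alike genes. Members and lists were chosen with earlier results of these data known. Region joining was tested on simulated data. Python 3.11.15, numpy 2.4.6 and pandas 2.3.3 were used.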

Additional observations from a re-analysis of the deposited data

How the results depend on the processing

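With spans extended by 40 kb, the shared H3K27ac regions numbered 1, and the H3K9ac regions 1 cKO only and 0 fl only. With 160 kb, H3K27ac had 10 cKO-only and 8 shared regions, H3K4me3 2 cKO-only and 18 shared, and H3K9ac 4 fl-only. At a −log10 q of at least 5, H3K9ac kept 1 cKO-only and 0 fl-only regions. The mean of regular DEK peaks was then 0.667, and it was 1 with 40 kb and 4 with 160 kb, against 2.67 with irregular rows kept and 1.5 to 3.5 with each replicate left out. With lists of equal length, cKO-only regions numbered 1 for H3K27ac and 2 for H3K9ac, and 1 gene, Zfpm1, kept H3K27ac at its start in cKO only. With a start window of 2 kb the median H3K4me3 width ratio was 1.02, since Gata3 and the further fl peak at Gata2 enter. No paired analysis was possible because each mark has 1 library per genotype and DEK was profiled in fl only. Unknown depth limits every call of an absent peak: a place missing from a list may lie just under its threshold.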
